A study of Homo sapiens with 9 samples.

Results

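The genes described here copy DNA and prepare the sites where copying starts. They form a list of 49 named genes, each represented by the brightest probe set that the platform annotation assigns to that gene alone (highest mean over the 9 arrays), and all 49 were measured among 19775 genes. RNA came from WA09, an established human embryonic stem cell line, at passages 32 to 38, with 3 arrays in each of 3 conditions. The pluripotent condition is the untreated line. For the damage condition the cells received DOX for 5 h, at a dose that is not given in the sources used here. DOX is read here as doxorubicin, which traps topoisomerase II on broken DNA. For the differentiating condition they received 1 µM retinoic acid (RA) for 2 days in medium without added FGF, so these cells differ from the pluripotent ones in that growth factor too. All conditions use the same line, and which arrays came from cultures on mouse feeder cells and which from feeder-free cultures is not stated. Levels are log2 intensities and changes are differences of them, and precision is limited by the small number of arrays.

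As background, replication begins when the origin recognition complex (ORC) marks a stretch of DNA and CDC6 and CDT1 load the ring-shaped MCM2 to MCM7 helicase onto it, a step called licensing that geminin (GMNN) blocks outside G1 phase. In S phase CDC45 and the GINS complex join the ring and activate it, polymerase alpha with its primase starts each strand, and polymerases delta and epsilon extend it on the sliding clamp PCNA, which RFC complexes load. Most of these genes are switched on at the G1 to S boundary by transcription factors of the E2F family. Human embryonic stem cells are known for a short G1 phase and for spending much of their cycle in S phase.

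A promoter feature that the choice of members did not use was more frequent among them than among all genes, and is shown here as sequence. Of the 49, 42 matched a RefSeq promoter window (GRCh38.p14) of 250 bases before and 50 after the annotated start. An E2F site was searched on both strands as any of 8 words, TTTCCCGC, TTTCCCGG, TTTCGCGC, TTTCGCGG, TTTGCCGC, TTTGCCGG, TTTGGCGC and TTTGGCGG. Such a match stood in 23 of the 42 windows (54.8%), against 1249 of 15384 windows of all genes tested (8.12%), with a median GC content of 65.3% in the members and 63.0% overall. The stricter pair TTTCGCGC and TTTGGCGC stood in 10 members (23.8%) and in 1.55% of all windows. Overlapping matches were counted singly, and matches describe letters, not binding. The stretches shown come from 5 members whose level changed after DOX (MCM6, CDT1, TYMS, PCNA and RRM2) and from POLA2 and UHRF1, which hold 2 words each and were not called. Each runs 5′ to 3′ on the gene's strand, with E2F words in capitals (in RRM2, the CHR word described after them).
MCM6: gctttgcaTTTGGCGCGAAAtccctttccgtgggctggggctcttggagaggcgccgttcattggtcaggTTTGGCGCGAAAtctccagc
CDT1: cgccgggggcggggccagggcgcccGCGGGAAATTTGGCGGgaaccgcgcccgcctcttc
TYMS: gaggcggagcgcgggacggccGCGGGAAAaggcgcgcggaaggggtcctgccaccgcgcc
PCNA: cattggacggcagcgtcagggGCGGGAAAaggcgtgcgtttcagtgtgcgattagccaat
POLA2: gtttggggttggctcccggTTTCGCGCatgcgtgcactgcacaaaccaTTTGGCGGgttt
UHRF1: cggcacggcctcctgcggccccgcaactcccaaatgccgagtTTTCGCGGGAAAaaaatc
RRM2: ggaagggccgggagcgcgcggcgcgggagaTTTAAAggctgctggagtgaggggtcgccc

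The MCM6 stretch lies at chr2:135876514-135876603 on the minus strand and holds 4 matches in 2 overlapping pairs, the most of any member. The CDT1 stretch (chr16:88803729-88803788, plus strand) and the UHRF1 stretch (chr19:4909441-4909500, plus strand) hold 2 each, side by side or overlapping. The POLA2 stretch (chr11:65261890-65261949, plus strand) also holds 2, while those of TYMS (chr18:657593-657652, plus strand) and PCNA (chr20:5126643-5126702, minus strand) hold 1 each. RRM2 (chr2:10122679-10122738, plus strand) had no E2F word in its window. Its capitals mark TTTAAA, 1 of the 2 words searched for the cell cycle homology region (CHR), an element of genes expressed late in the cell cycle. In RRM2 this word lies at positions -30 to -25 from the start, and whether it acts as a CHR there was not tested. The CHR words TTTAAA and TTTGAA stood in 3 of 42 members (7.14%), RRM1, RRM2 and TK1, and in 18.9% of all windows. The CCAAT box, searched as CCAAT on both strands, stood in 24 members (57.1%) against 36.1% of all windows, and the GC box GGGCGG in 71.4% against 58.9%. The p53 half-site consensus was matched in 3 members (7.14%), MCM6, RFC3 and RRM1, and in 5.95% of all windows. Of 34 E2F matches in the members, 24 began no more than 60 bases before the start or after it.

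**Figure D1:**
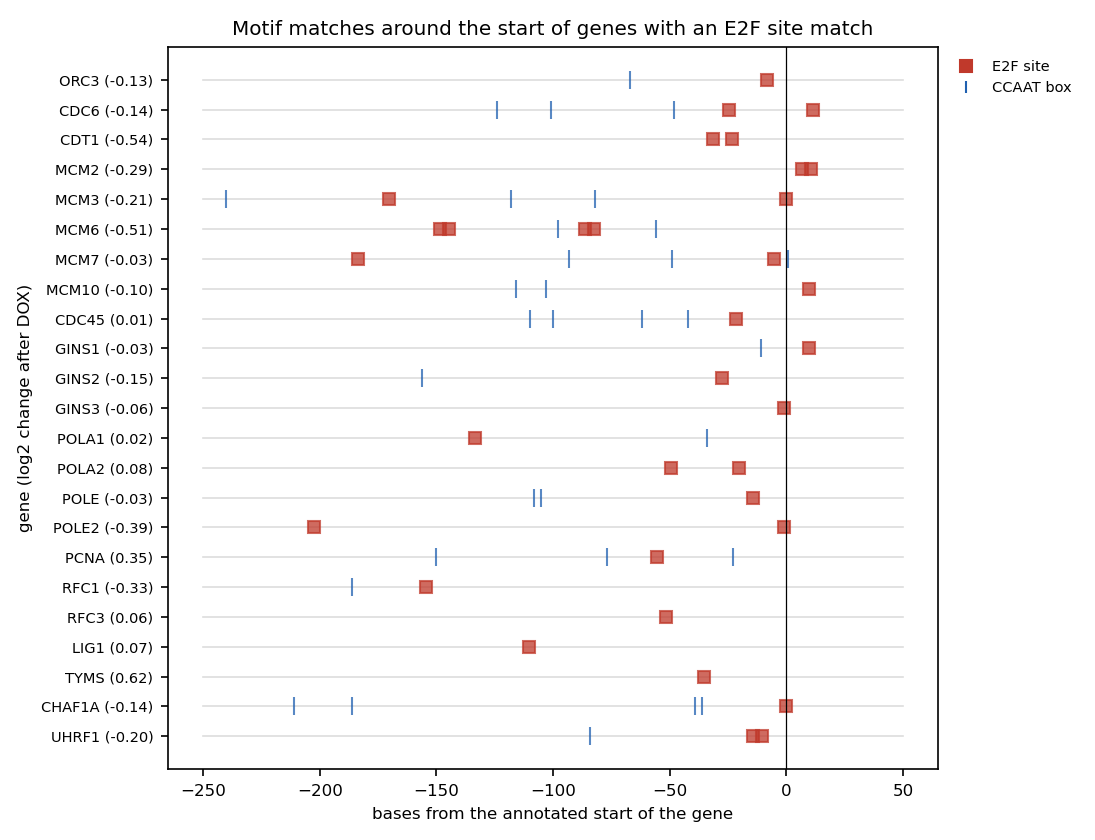
Each row is 1 of the 23 genes with an E2F word in its promoter window, with its log2 change after DOX in brackets, and the horizontal axis gives the distance in bases from the annotated start. Red squares are E2F words and blue ticks CCAAT boxes; most E2F words lie close to the start, while those of MCM6 lie at positions -152 to -79.

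Most members changed little, as did most genes. Every member lay above the median gene (5.96), with mean levels from 6.67 for CHAF1B to 11.91 for PCNA. The median change over the 49 was -0.10 after DOX and -0.025 after RA, against -0.0047 and -0.0041 over all genes and -0.069 and -0.018 over genes above the median level. The 95% interval of the change lay wholly within 1.5-fold in either direction for 44 of the 49 after DOX and 46 after RA. These are 89.8% and 93.9% of members, against 86.4% and 91.8% of all genes and 81.7% and 89.7% of genes above the median level. The exceptions among the members were ORC1, CDT1, MCM6, GINS4 and TYMS after DOX and GINS3, GINS4 and PRIM2 after RA.

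Facts of the whole series that bear on these values are few. Correlations between arrays of the same condition were 0.996 to 0.998 (across genes, which are not replicates). No label tells whether the arrays came from separate cultures, so each p-value reflects array-to-array spread, which may be technical. Because the RNA came from whole cultures, fewer cells of a type and less RNA per cell cannot be told apart. The labelled cell type was borne out by its markers: of 10 listed, 8 had a probe set of their own (not POU5F1 and TDGF1), and their mean level was 11.84 to 12.18 on every array, with 1 called lower after DOX (SOX2, -0.46) and 1 after RA (NANOG, -0.34). Of 15 fibroblast and stromal markers 6 rose (40.0%) and 0 fell after DOX in limma's test. Over all genes 5.67% rose and 9.6% fell. At an unadjusted p under 0.05 in limma the marker counts were 9 and 0. The mean level of these markers was 6.42 to 6.55 on the pluripotent arrays, 6.98 to 7.01 on the damage arrays and 6.27 to 6.32 on the differentiating arrays. The 6 that rose were COL1A1, THY1, VIM, TWIST1, ACTA2 and TAGLN. Levels differed widely within the list. LUM, FAP and POSTN lay between 3.06 and 3.98 on all 9 arrays and DCN between 4.32 and 4.92. By contrast COL1A2 lay between 9.15 and 9.50, COL1A1 between 10.32 and 11.61 and THY1 between 8.67 and 9.67. VIM lay between 10.67 and 12.49 and TAGLN between 8.71 and 12.31. After RA 2 of the 15 rose (13.3%, against 3.16% of all genes), COL1A1 by 1.00 and COL3A1 by 0.57. In the other direction 4 fell (26.7%, against 3.32% of all genes). These were TAGLN, VIM, COL6A3 and THY1, with changes from -1.76 for TAGLN to -0.37 for THY1. The part of such markers in the results below was not tested.

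The first question is what 5 h of DNA damage did to the replication genes of these cells. A few genes moved, in both directions. CDT1, the licensing factor, and MCM6, a subunit of the helicase ring, were lower, and POLE2, MCM2, POLD3, MCM4, RFC4 and RPA1 were lower by less. TYMS, RRM2 and PCNA, which supply nucleotides or hold the polymerase on DNA, were higher. In limma's test with Benjamini-Hochberg adjustment over all genes (called at an adjusted p under 0.05), 8 of 49 members fell (16.3%) and 3 rose (6.12%), and 38 did not pass. Over all genes 15.3% were called, 9.6% lower and 5.67% higher. Over genes above the median level, where all members lie, 24.6% were called, 16.6% lower and 8.05% higher, so the members' share was near that background in both directions.

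Counts that use no test threshold were as follows. The estimate was below 0 for 37 of the 49 members (75.5%), against 51.2% of all genes and 64.1% of genes above the median level. The damage arrays all lay below the pluripotent arrays for 19 members (38.8%) and all above for 3 (6.12%). Over all genes these shares were 17.4% and 11.5%, and over genes above the median level 29.6% and 13.9%.

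**Figure D2:**
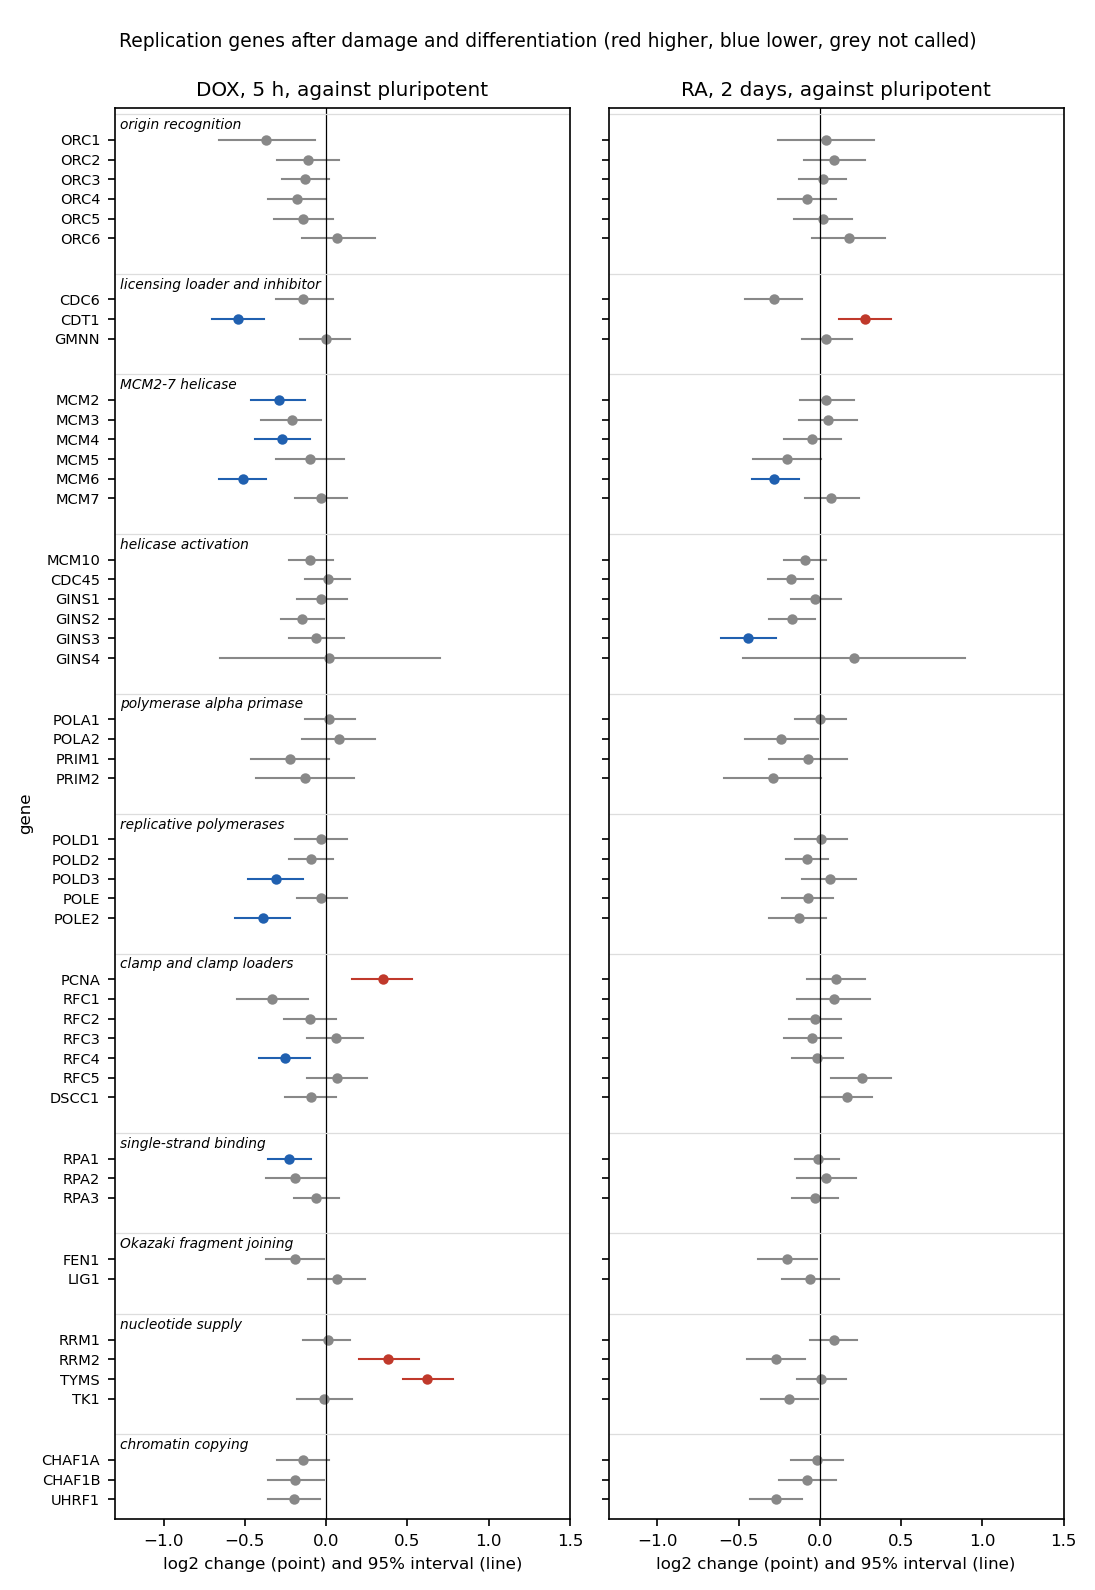
Each row is a gene, grouped by role, and the horizontal axis gives its log2 change against the pluripotent arrays after DOX (left) and RA (right), with 3 arrays a condition; points are limma estimates and lines 95% intervals. Genes called higher are red and lower blue: 11 are coloured after DOX and 3 after RA, and CDT1 is the gene coloured differently in the 2 panels.

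**Figure D3:**
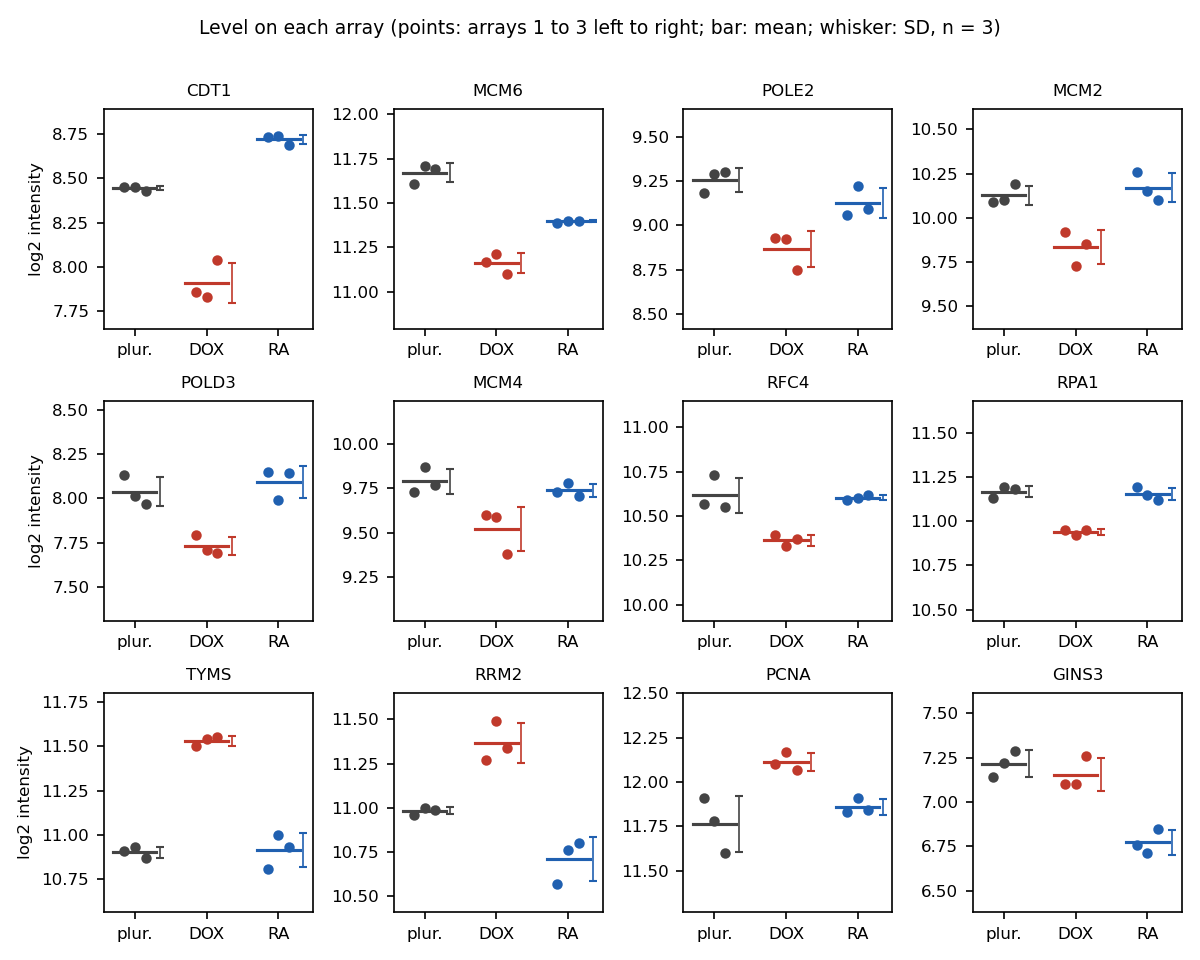
Each panel gives 1 gene's log2 intensity on the 3 pluripotent, 3 DOX and 3 RA arrays (points), with the mean (bar) and SD (whisker, n = 3); every vertical axis spans the same range and does not start at 0. The DOX points of CDT1 and MCM6 lie below, and those of TYMS and RRM2 above, all other points of the same gene.

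Origin recognition, the first step, showed no called change after DOX: of the 6 ORC genes 0 rose and 0 fell in limma's test (0 and 2 at an unadjusted p under 0.05). ORC1, the subunit whose amount cycles in human cells, was at 7.93, 7.90 and 7.88 on pluripotent arrays 1 to 3 and at 7.87, 7.50 and 7.24 on damage arrays 1 to 3. The damage arrays were all lower, but the first only just, and their spread (SD 0.32) was the widest of any member in that condition. The change was -0.37 (SE 0.13, adjusted p = 0.097). It passed without damage array 1 and also with the replicate number as a block. ORC4 was at 9.70, 9.68 and 9.49 on the pluripotent and 9.39, 9.42 and 9.52 on the damage arrays, which overlap, and changed by -0.18 (SE 0.08, adjusted p = 0.18). ORC2, ORC3, ORC5 and ORC6 had changes from -0.14 to 0.07 and did not pass. A dimmer probe set of ORC2 was called lower (-0.33, adjusted p = 0.029 in the fit of all single-gene probe sets).

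Among the licensing factors, CDT1 changed and its partner and inhibitor did not pass. CDT1 was at 8.45, 8.45 and 8.43 on the pluripotent arrays and at 7.86, 7.83 and 8.04 on the damage arrays. The groups lie far apart, and the third damage array was the closest to the pluripotent ones. DOX lowered CDT1 to 0.688 times the pluripotent level (-0.54 on the log2 scale, SE 0.07, limma adjusted p = 0.00052). The mean went from 8.44 ± 0.01 to 7.91 ± 0.11 (SD, n = 3). The value used comes from a probe set with the suffix x_at, which may pick up related sequences. The other CDT1 probe set gave -0.56 but did not pass (adjusted p = 0.10). CDC6, which works with CDT1 to load the helicase, was at 8.05, 7.96 and 8.19 on the pluripotent arrays and 7.92, 7.92 and 7.94 after DOX, a change of -0.14 (SE 0.08, adjusted p = 0.30). GMNN, the CDT1 inhibitor, lay between 11.04 and 11.24 on all 9 arrays, and the 95% interval of its change after DOX ran from -0.16 to 0.15.

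The 6 genes of the MCM2 to MCM7 ring, which act as a single complex, did not move by one amount. After DOX 3 of 6 fell and 0 rose (4 and 0 at an unadjusted p under 0.05), and all 6 estimates were below 0, from -0.51 for MCM6 to -0.03 for MCM7. Among genes above the median level 16.6% were called lower and 64.1% had an estimate below 0, and among all genes 9.6% and 51.2%. MCM6 was at 11.61, 11.71 and 11.69 on the pluripotent arrays and at 11.17, 11.21 and 11.10 on the damage arrays. All damage arrays were lower by a margin well beyond the spread within either group. It fell to 0.701 times the pluripotent level (-0.51, SE 0.06, adjusted p = 0.00038), and its dimmer probe set gave -0.76 (adjusted p = 0.020).

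MCM2 was at 10.09, 10.10 and 10.19 on the pluripotent arrays and at 9.92, 9.73 and 9.85 after DOX, a fall of a smaller size (-0.29, SE 0.08, adjusted p = 0.024). MCM4 was at 9.73, 9.87 and 9.77 and then at 9.60, 9.59 and 9.38 (-0.27, SE 0.08, adjusted p = 0.041). In both genes every damage array lay below every pluripotent array, with small gaps. Of the 5 probe sets of MCM4, 4 had estimates below 0 (-0.28 to -0.15) and 1 dim one was at 0.23. MCM3, at -0.21 (adjusted p = 0.11), MCM5, at -0.10 (adjusted p = 0.55), and MCM7, at -0.03 (adjusted p = 0.84), did not pass limma's test.

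The factors that activate the helicase showed no called change after DOX, with 0 of 6 higher and 0 lower in limma's test (0 and 1 at an unadjusted p under 0.05). GINS3 was at 7.14, 7.22 and 7.29 on the pluripotent arrays and 7.10, 7.10 and 7.26 on the damage arrays, which overlap. GINS4 gave no usable estimate, because its arrays scattered from 7.35 to 8.60 with no order by condition: it was at 7.60, 7.35 and 8.43 when pluripotent, at 8.05, 7.74 and 7.68 after DOX and at 8.01, 7.40 and 8.60 after RA. Its 95% interval after DOX ran from -0.65 to 0.70. MCM10, CDC45, GINS1 and GINS2 had changes between -0.15 and 0.01. A dimmer MCM10 probe set was called lower (-0.30, adjusted p = 0.022), while the brightest was at -0.10.

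Polymerase alpha and its primase, which start each new strand, had 0 of 4 genes called higher and 0 lower in limma's test, and 0 at an unadjusted p under 0.05. POLA1, the catalytic subunit, lay between 8.53 and 8.72 on all 9 arrays. PRIM1, the catalytic primase subunit, was at 9.81, 9.89 and 10.14 on the pluripotent arrays and 9.82, 9.68 and 9.68 on the damage arrays, which touch (-0.22, adjusted p = 0.23). POLA2, the accessory subunit, was at 7.80, 7.64 and 7.64 on the pluripotent and 7.94, 7.70 and 7.68 on the damage arrays, so the groups overlap. PRIM2, the large primase subunit, was at 7.09, 6.96 and 6.57 and then at 6.54, 6.91 and 6.77. The value of PRIM2 is uncertain, since the platform annotation assigns 4 further probe sets to both PRIM2 and its near copy PRIM2BP.

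Among the polymerases that extend the strands, 2 of 5 genes fell, both for accessory subunits. The share called lower was 16.6% of genes above the median level and 9.6% of all genes. POLE2, the second subunit of polymerase epsilon, was at 9.18, 9.29 and 9.30 on the pluripotent arrays and at 8.93, 8.92 and 8.75 after DOX, with every damage array below every pluripotent array. It fell to 0.763 times the pluripotent level (-0.39, SE 0.08, adjusted p = 0.0066). POLD3, a subunit of polymerase delta, was at 8.13, 8.01 and 7.97 and then at 7.79, 7.71 and 7.69 (-0.31, SE 0.07, adjusted p = 0.017), while its dim second probe set was at 0.08. The catalytic subunit genes POLD1 and POLE each changed by -0.03, with 95% intervals from -0.19 to 0.13 and from -0.18 to 0.13. POLD2 was at -0.09 (adjusted p = 0.36).

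Of the sliding clamp and its 6 loader genes, the clamp rose, 1 loader gene fell and the others were not called. PCNA, the clamp, was at 11.91, 11.78 and 11.60 on the pluripotent arrays and at 12.10, 12.17 and 12.07 on the damage arrays, all of them higher, and the 3 pluripotent arrays were themselves spread. It rose 1.27-fold (0.35, SE 0.08, adjusted p = 0.016). RFC4, a subunit of the clamp loader, was at 10.57, 10.73 and 10.55 and then at 10.39, 10.33 and 10.37 (-0.25, SE 0.07, adjusted p = 0.031). RFC1, the large subunit of the main loader, was at 8.50, 8.59 and 8.42 and then at 8.39, 8.07 and 8.06. Its change of -0.33 (SE 0.10) narrowly missed the threshold (adjusted p = 0.051), and the first damage array again lay nearest the pluripotent ones. RFC2, RFC3, RFC5 and DSCC1, which belongs to an alternative loader, had changes from -0.10 to 0.07.

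The single-strand binding protein RPA has 3 subunits, of which the largest fell. RPA1 was at 11.13, 11.19 and 11.18 on the pluripotent arrays and at 10.95, 10.92 and 10.95 after DOX, a small drop with almost no spread (-0.23, SE 0.06, adjusted p = 0.029). RPA2, at 9.40, 9.28 and 9.30 and then 9.31, 9.10 and 9.02, overlapped between the groups (-0.19, adjusted p = 0.18). RPA3 was at -0.06 (adjusted p = 0.61).

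The genes that finish the lagging strand were not called: FEN1, the flap nuclease, was at 10.58, 10.53 and 10.35 on the pluripotent and 10.40, 10.29 and 10.21 on the damage arrays, with overlap (-0.19, adjusted p = 0.16), and LIG1, the ligase, at 8.74, 8.71 and 8.57 and then 8.83, 8.70 and 8.69, overlapped too (0.07, adjusted p = 0.66). Of the 3 genes that restore chromatin on new DNA 0 rose and 0 fell in limma's test (0 and 2 at an unadjusted p under 0.05). UHRF1, which carries DNA methylation over to the new strand, was at 9.41, 9.34 and 9.42 and then at 9.29, 9.20 and 9.09 (-0.20, SE 0.07, adjusted p = 0.10). The histone chaperone subunits CHAF1A and CHAF1B changed by -0.14 and -0.19, with CHAF1B at 6.73, 6.83 and 6.71 and then at 6.56, 6.64 and 6.50. For all 3 the damage arrays lay below the pluripotent arrays, as they did for 29.6% of genes above the median level and 17.4% of all genes.

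The genes of nucleotide supply held the largest rise. TYMS, thymidylate synthase, was at 10.91, 10.93 and 10.87 on the pluripotent arrays and at 11.50, 11.54 and 11.55 on the damage arrays. The groups are separated by many times their spread. TYMS rose 1.54-fold (0.62, SE 0.07, adjusted p = 0.00016), from 10.90 ± 0.03 to 11.53 ± 0.03 (SD, n = 3), and a second probe set rose by the same 0.62 (adjusted p = 0.00089). The gene TYMSOS, which starts beside TYMS on the other strand, was at -0.26 (adjusted p = 0.14).

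RRM2, the small subunit of ribonucleotide reductase, which makes deoxynucleotides, was at 10.96, 11.00 and 10.99 on the pluripotent arrays and at 11.27, 11.49 and 11.34 after DOX (0.38, SE 0.08, adjusted p = 0.0096). This rise rests on 1 of 2 equally bright probe sets: the mean levels were 11.02 and 11.00, but the second changed by -0.01 (adjusted p = 0.95), and with the mean of both the call was lost (0.19, adjusted p = 0.07). The large subunit RRM1 changed by 0.01, with a 95% interval from -0.14 to 0.15, and the salvage kinase TK1 by -0.01, from -0.18 to 0.16.

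**Figure D4:**
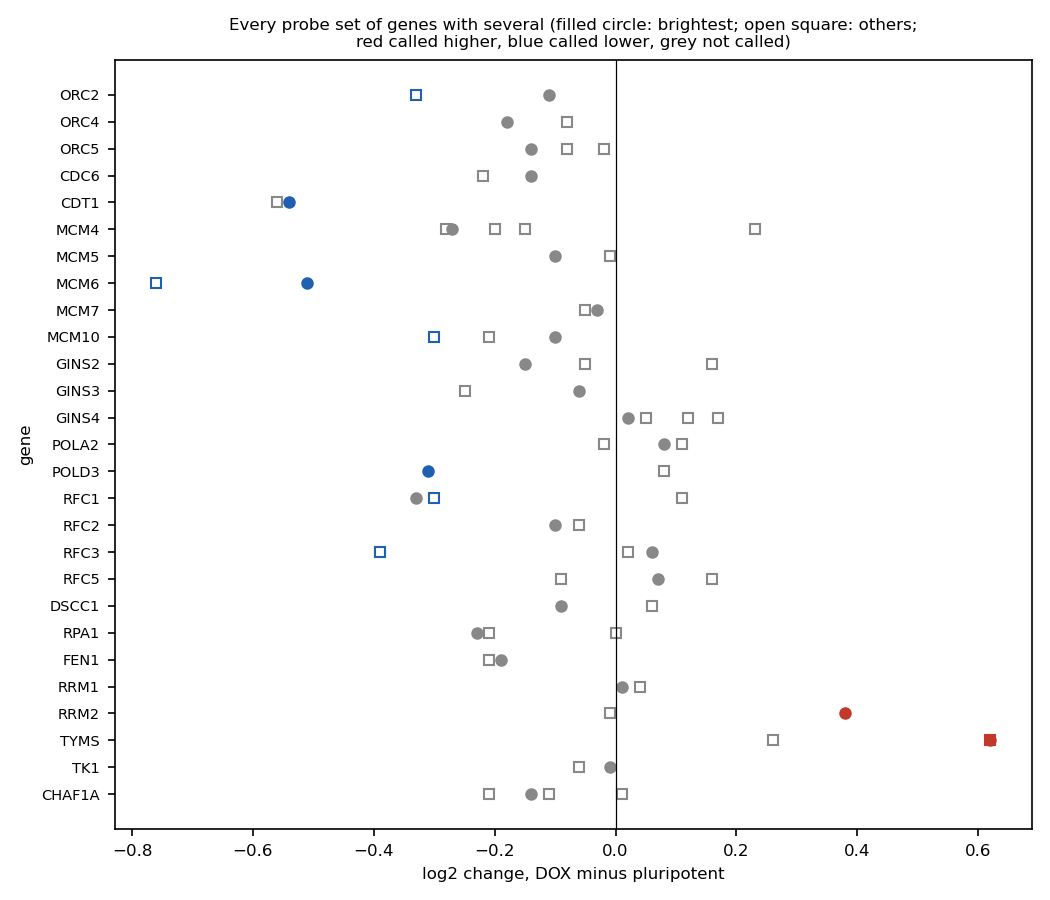
Each row is 1 of the 27 members with several probe sets, and the horizontal axis gives the log2 change after DOX of each probe set in a fit of all single-gene probe sets; filled circles are the brightest probe sets, used in the text, and open squares the others. Red and blue mark calls in that fit: MCM6 and TYMS have 2 called probe sets each (those of TYMS coincide), while the 2 probe sets of RRM2 lie 0.38 and -0.01 from 0.

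Probe sets bear on the other members in the same way. The 49 members had 92 probe sets of their own, and 22 members had only 1. After DOX 0 members had probe sets called in both directions, and for 17 of the 27 with several all estimates had the same sign. Fitted with all 41091 single-gene probe sets, 10 member probe sets were called lower and 4 higher. RFC1 (-0.30, adjusted p = 0.027) and RFC3 (-0.39, adjusted p = 0.032) each had a probe set called lower that was not the one used.

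The firmness of the DOX calls differs between members. CDT1, MCM6, POLE2, TYMS and RRM2 kept their call in all 6 fits that left out 1 compared array, and PCNA did in all but the fit without damage array 2 (adjusted p = 0.058). The other 5 lost it in several: RPA1 in all 6, RFC4 in all but the one without pluripotent array 3, MCM2 and MCM4 in all but the one without damage array 1, and POLD3 without pluripotent array 1, damage array 2 or damage array 3. With the mean of all probe sets the call was also lost by RRM2 (0.19, adjusted p = 0.07), MCM4 (-0.13, adjusted p = 0.20), POLD3 (-0.12, adjusted p = 0.21) and RPA1 (-0.14, adjusted p = 0.11). POLE2, PCNA, MCM2 and RFC4 have 1 probe set each, so that setting leaves their estimates unchanged. With arrays left out singly, the number of members called lower was 3 without pluripotent array 1, damage array 2 or damage array 3, and 4 or 5 without pluripotent array 2 or 3. Without damage array 1 it was 9. Damage array 1 was the highest of its condition for 27 of 49 members and the lowest for 8, and the median difference of members from the pluripotent mean was -0.09 on it and -0.13 and -0.11 on the others.

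E2F words stood in the windows of members that fell, rose and did not pass. Of the 8 lower members 6 had a window and 4 of those an E2F word (CDT1, MCM2, MCM6 and POLE2). Of the 3 higher members 2 had one (PCNA and TYMS), and of the 33 uncalled members with a window 17 had one. POLA2, with 2 words, changed by 0.08 after DOX, and MCM7, also with 2, by -0.03. Of 9 neighbouring genes starting within 1000 bases of a member and transcribed away from it, 1 was called after DOX. It was SMYD4 beside RPA1 (-0.35, limma adjusted p = 0.042), and 15.3% of all genes were called. Genes on the other strand with overlapping starts, TYMSOS among them, were not counted.

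The next question is how the cells given RA for 2 days differed from the pluripotent ones. Their medium also lacked added FGF, and RA and the lack of FGF cannot be told apart here. Little changed in this gene set. CDT1 was slightly higher, MCM6 and GINS3 were lower, and 46 of 49 members did not pass. In limma's test 1 rose (2.04%) and 2 fell (4.08%), against 6.47% of all genes called, 3.16% higher and 3.32% lower, and 10.4% of genes above the median level, 4.75% higher and 5.6% lower. With a further quantile normalization 1 rose and 1 fell. The estimate was below 0 for 28 members (57.1%), against 51.4% of all genes and 54.8% of genes above the median level. The differentiating arrays lay above all pluripotent arrays for 4 members (8.16%, against 10.2% of all genes and 14.0% of genes above the median level) and below all for 13 (26.5%, against 12.5% and 19.7%). The largest change among uncalled members was 0.29 in size.

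GINS3, a subunit of the GINS complex, had the largest change after RA. It was at 7.14, 7.22 and 7.29 on the pluripotent arrays and at 6.76, 6.71 and 6.85 on the differentiating arrays, which lie wholly below. It fell to 0.737 times the pluripotent level (-0.44, SE 0.08, adjusted p = 0.0055), kept this call in all 6 fits that left out 1 compared array, and its second probe set fell too (-0.38, adjusted p = 0.036). The other GINS genes were at -0.03 (GINS1), -0.17 (GINS2) and 0.21 (GINS4), and none of these passed.

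MCM6 was at 11.39, 11.40 and 11.40 after RA, below all pluripotent arrays and with almost no spread. The change was -0.28 (SE 0.06, adjusted p = 0.028). When arrays were left out singly it was called only without pluripotent array 1, and not without any of the other 5. CDT1 was at 8.73, 8.74 and 8.69, above all pluripotent arrays, a rise of 1.21-fold (0.28, SE 0.07, adjusted p = 0.045). That call was lost without any 1 of the 6 arrays compared and with the mean of its probe sets (0.20, adjusted p = 0.44). Its second probe set changed by 0.11 (adjusted p = 0.88).

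The members nearest to a call were also below the pluripotent level. UHRF1 was at 9.08, 9.18 and 9.11 after RA (-0.27, adjusted p = 0.054), CDC6 at 7.67, 7.83 and 7.84 (-0.28, adjusted p = 0.062) and RRM2 at 10.57, 10.76 and 10.80 (-0.27, adjusted p = 0.097). For each of them the differentiating arrays lay below all pluripotent arrays, as they did for 19.7% of genes above the median level and 12.5% of all genes. RFC5, a clamp loader subunit, was the member furthest above without a call, at 8.54, 8.83 and 8.77 against 8.52, 8.47 and 8.37 (0.26, adjusted p = 0.11). The brightest FEN1 probe set was at -0.20 (adjusted p = 0.22) and the other fell by 0.40 (adjusted p = 0.021). TYMS, at 10.81, 11.00 and 10.93, and PCNA, at 11.83, 11.91 and 11.84, overlapped the pluripotent arrays, with changes of 0.01 and 0.10.

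Setting RA directly against DOX tests whether the 2 treated conditions differ. The RA cells had 2 days without added FGF and the DOX cells 5 h of treatment, so time and medium cannot be separated from the agents. Its estimates use no pluripotent array, whereas the 2 comparisons above share the same 3 pluripotent arrays. Its standard errors and p-values do draw on the pluripotent arrays, because the spread was fitted over all 9 arrays. Of the 49 members 10 were higher in RA than in DOX cells (20.4%) and 3 lower (6.12%), against 21.2% of all genes called, 12.6% higher and 8.62% lower. Among genes above the median level 34.0% were called, 21.1% higher and 12.9% lower. The RA arrays lay wholly above the DOX arrays for 18 members (36.7%, against 19.6% of all genes and 32.1% of genes above the median level) and wholly below for 9 (18.4%, against 15.2% and 20.5%). The estimate was below 0 for 17 members (34.7%), against 51.0% and 42.3%. With arrays centred on their median the members split 7 higher and 5 lower, and with a further quantile normalization 9 and 6. When only the 2 compared conditions were fitted, they split 8 higher and 4 lower.

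CDT1 had the largest gap, 1.76-fold higher in RA than in DOX cells (0.82, SE 0.07, adjusted p = 1.6e-05), since it lay below the pluripotent arrays in DOX and above them in RA cells. MCM2 (0.34, adjusted p = 0.0085), POLD3 (0.37, adjusted p = 0.0049) and RFC1 (0.42, adjusted p = 0.013) were also higher in RA cells, as were MCM3, MCM6, POLE2, RFC4, DSCC1 and RPA1, by 0.21 to 0.26. CDT1, MCM2 and POLD3 kept that call in all 6 fits that left out 1 compared array. With the mean of all probe sets the call was lost by POLD3 (0.15, adjusted p = 0.072), whose second probe set was at -0.06, by DSCC1 (0.11, adjusted p = 0.29) and by RPA1 (0.14, adjusted p = 0.12). For DSCC1 the direction turned with its other probe set (-0.04). RFC1 was at 0.02 with a very dim probe set (mean level 3.45), while its x_at probe set was higher too (0.29, adjusted p = 0.023).

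On the lower side, RRM2 stood at 0.636 times its DOX level in RA cells (-0.65, SE 0.08, adjusted p = 0.00023) and TYMS at 0.653 times (-0.62, SE 0.07, adjusted p = 9.9e-05). For RRM2 the second probe set gave -0.15 (adjusted p = 0.23). GINS3 was lower in RA cells by -0.38 (SE 0.08, adjusted p = 0.0047), though its second probe set was at -0.13 (adjusted p = 0.40). PCNA, at -0.25 (adjusted p = 0.057), and POLA2, at -0.32, lay just past the threshold and were not called. The same held on the higher side for ORC1, at 0.41 (limma adjusted p = 0.053). In the fits with other settings or an array left out, ORC1 was called in 6, PCNA in 7 and POLA2 in 8.

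Other genes of the pathway, a list of 47 with 46 measured, had 16 members that fell after DOX (34.8%), 3 that rose (6.52%) and 27 that were not called, with a median change of -0.16. Of genes above the median level 16.6% were called lower and 8.05% higher, and of all genes 9.6% and 5.67%. The 4 with the largest change were E2F7, FBXO5, SLBP and RRM2B. E2F7, a repressor of the E2F family and a known p53 target, was at 8.49, 8.40 and 8.23 on the pluripotent and 9.73, 9.78 and 9.76 on the damage arrays, and rose 2.6-fold (1.38, SE 0.08, adjusted p = 8.7e-07). RRM2B, the p53-inducible small subunit that can replace RRM2, went from 9.02, 9.01 and 8.80 to 9.41, 9.64 and 9.64 (0.62, SE 0.09, adjusted p = 0.00095).

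FBXO5 (EMI1), which restrains the ubiquitin ligase that destroys geminin and cyclins, went from 9.02, 9.09 and 8.90 to 8.20, 8.29 and 8.16 (-0.78, SE 0.09, adjusted p = 0.00017). SLBP, the stem-loop protein needed for histone messages in S phase, went from a mean of 9.87 ± 0.02 to 9.18 ± 0.15 (SD, n = 3; -0.69, SE 0.08, adjusted p = 0.00023). For these 4 genes the damage and pluripotent arrays lay apart. Others that fell include DBF4, the activating subunit of the origin-firing kinase (-0.58), with its kinase CDC7 (-0.26), and the fork proteins WDHD1 (-0.61) and TIPIN (-0.46); these were picked after their values were seen. After RA 1 of the 46 fell (2.17%) and 0 rose in limma's test (6 and 2 at an unadjusted p under 0.05). That gene was the histone chaperone ASF1A (-0.30, adjusted p = 0.017). Of genes above the median level 5.6% were called lower and 4.75% higher after RA, and of all genes 3.32% and 3.16%.

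Mitosis genes, set beside these as the next stage of the cycle, fell in 17 of 22 cases after DOX (77.3%) and rose in 0 (0 at an unadjusted p under 0.05). Of genes above the median level 16.6% were called lower and 8.05% higher, and of all genes 9.6% and 5.67%. The mitosis genes had a median change of -0.49 and a range from -0.81 to -0.15. Their range of estimates overlaps that of the replication members, -0.54 to 0.62, whose median was -0.10. After RA 0 of 22 rose and 0 fell in limma's test (2 and 2 at an unadjusted p under 0.05). Of genes above the median level 4.75% were called higher and 5.6% lower after RA, and of all genes 3.16% and 3.32%. The lists were not tested against each other.

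**Figure D5:**
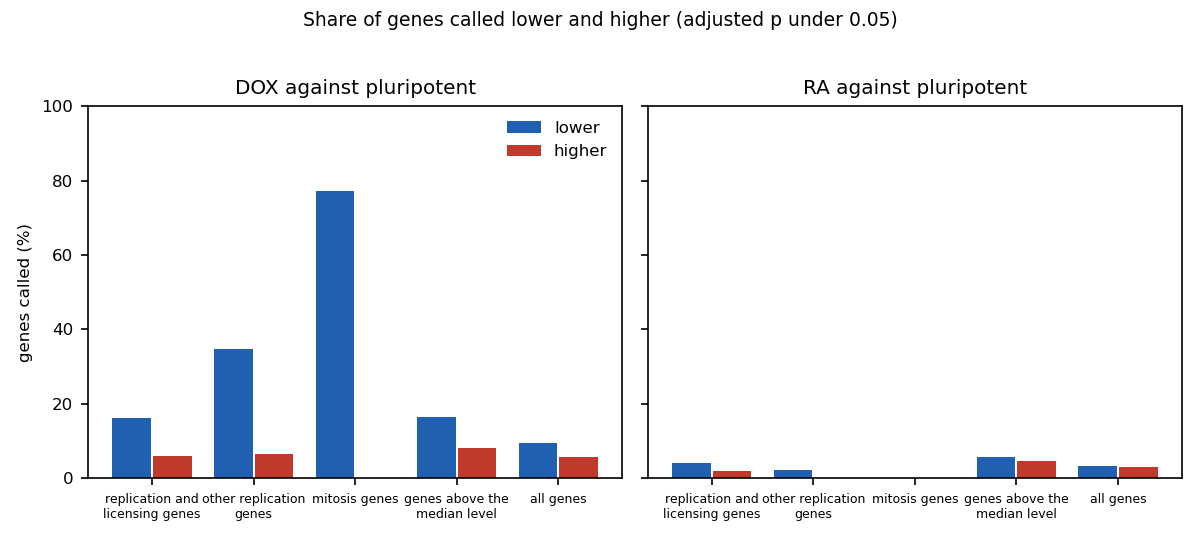
Bars give the percentage of genes called lower (blue) and higher (red) after DOX (left) and RA (right) in the 49 replication and licensing genes, 46 other replication genes, 22 mitosis genes, 9887 genes above the median level and all 19775 genes. After DOX the lower share is 16.3% in the replication members, 34.8% in the other replication genes, 77.3% in the mitosis genes and 16.6% in genes above the median level.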

How the data were processed

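Each of the 9 samples is a 1-colour Affymetrix array. The authors deposited 1 log2 value per probe set, made with RMA and the package affy per the submitters' processing notes (versions not given in the sources used here). The log2 scale was read from the range of values, 2.36 to 14.8. RMA's quantile step removes a shift shared by most genes, and its summary compresses changes of dim probe sets. Of 54675 probe sets, 62 controls were left out, and 41091 had exactly 1 gene (1801 had several and 11721 none). Keeping the brightest per gene left 19775 genes, with no filter on low values. The 3 conditions were modelled together over the 9 arrays in limma 3.58.1 under R 4.3.3 (lmFit, eBayes), a step tested on simulated data. Intervals are unadjusted 95% intervals from that fit.

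The members and lists were chosen with earlier results of these data known. Values of every array are given for called members changed by at least 0.5 and for the 2 largest changes in other role groups, and also for further called members and those nearest a call, which were picked after their values were seen. Of the other replication genes the 4 with the largest change among called genes are named.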

Additional observations from a re-analysis of the deposited data

How the results depend on the processing

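The counts of members called were recomputed under 9 other settings and in 6 fits that left out 1 compared array each. Members called higher after DOX stayed at 2 to 3 throughout. Members called lower after DOX (8) were 5 when only the 2 compared conditions were fitted and 6 with arrays centred on their median. They were 10 among genes above the median level and 11 with a trended and robust variance prior. With an array left out they were 3 to 9. Same-numbered arrays of different conditions had deviations correlated at -0.103 to 0.199, and differently numbered arrays at -0.247 to 0.133. With 3 arrays a condition these values do not settle whether the numbers pair the arrays. With the replicate number as a block the members called lower after DOX were 9, of which 7 were among the 8. For RA the member called higher (1) became 0 with the mean of all probe sets, without x_at and s_at probe sets (where a gene had others) and with the replicate block (1, 2 and 3 higher at an unadjusted p under 0.05 in limma), and 0 to 1 with an array left out. Members called lower after RA (2) were 4 with the mean of all probe sets, 5 among genes above the median level, 5 with a trended and robust variance prior and 1 after a further quantile normalization, and 1 to 2 with an array left out. For RA against DOX the 10 higher became 3 to 8 with an array left out, and the 3 lower were 6 with the mean of all probe sets, 6 among genes above the median level, 5 with a trended and robust prior, 6 after quantile normalization and 5 with centred arrays. DSCC1, at 0.26 in RA against DOX, turned to -0.04 (adjusted p = 0.84) without x_at and s_at probe sets. The block left the other counts within 1.5 times. The cause of these shifts was not tested. No background measure was used, so how far a level stands above background is unknown.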
